A study of Homo sapiens with 6 samples.

Results

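The genes examined here encode the machinery that makes proteins. They comprise cytosolic ribosomal proteins, mitochondrial ribosomal proteins, initiation factors with their regulators, elongation factors with the enzymes that modify them, and aminoacyl-tRNA synthetases. They were chosen by gene symbol alone, among protein-coding genes whose symbol starts with RPL, RPS and a digit (the RPS6K kinases excluded), MRPL, MRPS, EIF or EEF, or is that of a tRNA synthetase. Of 274 such genes in the GENCODE 29 annotation, 134 were in the deposited table of 7758 genes.

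RNA was sequenced from ARPE-19, an established line of human retinal pigment epithelium (RPE) cells, to see how the loss of METTL3, the methyltransferase that writes m6A into mRNA, affects inflamed RPE cells. The cells carried a lentiviral hairpin, either sh-METTL3 or sh-Control, and had been selected with puromycin. Cells of both groups were given LPS, a bacterial endotoxin, at 1 μg/ml for 24 h, so there were no cells without LPS in the comparison. Each group had 3 libraries. The labels leave unsaid whether a group's libraries are independent infections or cultures of a single selected line, so the p-values measure the spread between these libraries, which may be technical.

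A ribosome is built from ribosomal RNA and one copy of most ribosomal proteins, and mitochondria keep a separate ribosome whose proteins are encoded in the nucleus. Initiation factors load the ribosome with the initiator tRNA and the mRNA, elongation factors deliver each charged tRNA and move the ribosome along, and aminoacyl-tRNA synthetases attach each amino acid to its tRNA. Phosphorylation of eIF2 by stress kinases lowers general initiation and favours translation of the transcription factor ATF4, whose known targets include genes for amino acid supply and several synthetases. The mRNAs of ribosomal proteins usually start with a C followed by a run of pyrimidines, the TOP motif, through which mTORC1 and LARP1 control their translation. The RPE is a pigmented monolayer that supports photoreceptors and renews their visual pigment.

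The values are read counts divided by 1 size factor per library, called scaled counts below. The table holds only genes that the authors had called at an adjusted p of 0.05, 33.8% of the 22977 they tested. A fold change is given as log2 of the scaled count plus 1, sh-METTL3 minus sh-Control, and the test was limma with Benjamini-Hochberg adjustment over 22977 tests. Since every listed gene had been called before, 97.9% of all listed genes also passed this test, and a high share among the translation genes is no result about them. What can be compared is direction, size and order. In bulk RNA, fewer cells and less RNA per cell cannot be told apart.

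The targeted gene was examined first. The scaled counts of METTL3 (ENSG00000165819) were 1154, 1108 and 1091 in sh-Control replicates 1, 2 and 3 and 966, 1001 and 765 in sh-METTL3 replicates 1, 2 and 3. The groups did not overlap, and METTL3 was lower by 18.5% on the mean, a log2 fold change of -0.30 ± 0.096 (SE, n = 3 per group, limma adjusted p = 0.032). The call was lost when the reads were rescaled with edgeR's RLE factors (log2 -0.17, adjusted p = 0.261), when sh-Control replicate 1 (log2 -0.28, adjusted p = 0.124), replicate 2 (-0.31, adjusted p = 0.0958) or replicate 3 (-0.32, adjusted p = 0.0684) was left out, and when sh-Control replicate 1 and sh-METTL3 replicate 3 were both left out (-0.16, adjusted p = 0.126).

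The libraries held between 10898434 and 17750052 reads on the listed genes, and replicates of a group always differed by more than sampling noise (chi-square per degree of freedom 3.89 to 17.6). When the listed genes were reduced to principal components, component 1 took up 89.8% of their spread across libraries. The authors had already called each of these genes different between the groups. A large leading component was thus favoured by the selection, and it cannot show how far the groups differ in all genes. Of 12 RPE markers 6 were listed. SERPINF1, PMEL and BEST1 fell while MITF, KRT18 and KRT8 rose, and RPE65, RLBP1, TTR, TYR, TYRP1 and OTX2 were not listed and were not analysed here. The summed RPE marker level was 18748 to 20001 in the controls and 29908 to 33192 in the METTL3-silenced cells. Most of this sum was KRT8 (10761 to 22324 on the mean) and KRT18 (5980 to 7969), and MITF rose from 623 to 1121. SERPINF1 (1404 to 170), PMEL (368 to 105) and BEST1 (82.8 to 25.4) fell. The summed level of the 5 listed fibroblast or mesenchymal markers of 10 was 56256 to 59496 against 89227 to 103732. Most of it was VIM, which was higher (45935 to 89437 on the mean), whereas COL1A1, COL1A2, PDGFRB and THY1 were lower. Of 6 leukocyte markers 3 were listed and summed to 170 to 211 against 157 to 187, with PTPRC, CD3E and CD68 not listed. Within that sum CD14 (25.3 to 1.31 on the mean, log2 -3.71) and ITGAM (85 to 9.85, log2 -3.07) fell and CSF1R (79.9 to 159, log2 0.98) rose. The part of these differences in the results below was not tested.

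Most of the listed translation genes were lower in the METTL3-silenced cells. Of the 134 genes, 127 passed the test, 110 of them lower and 17 higher, while lower calls made up 51.3% and higher calls 46.6% of all listed genes. Among listed protein-coding genes the shares were 55.1% lower and 42.8% higher. The median log2 fold change was -0.30 over the 134 genes, against -0.21 over all listed genes and -0.25 over listed protein-coding genes, so that the difference from the list lay more in how uniform the direction was than in its size. The upper quartile was -0.21 for the translation genes and 0.68 for all listed genes. In 132 of the 134 genes the 2 groups of libraries did not overlap, as in 98.5% of all listed genes.

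The size of these differences depended on the scaling. RLE factors computed from the listed genes raised the median of all listed genes by 0.12 on the log2 scale, and then 76 translation genes were called, 56 lower and 20 higher, when 37% of all listed genes were lower and 47.7% higher. With TMM factors the shift was 0.04 and the calls were 95 lower and 19 higher, against 47.1% and 47.6% of all listed genes. No translation gene changed sign in any of 18 alternative fits. Since the smallest absolute log2 fold change that the authors listed was 0.13, stable signs are partly built into the table. In every fit, 63 of the genes passed the threshold. A doubling or halving was reached by 7 genes, 6 lower and 1 higher, when 13.1% of all listed genes were called at least halved and 17.4% at least doubled.

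**Figure D1:**
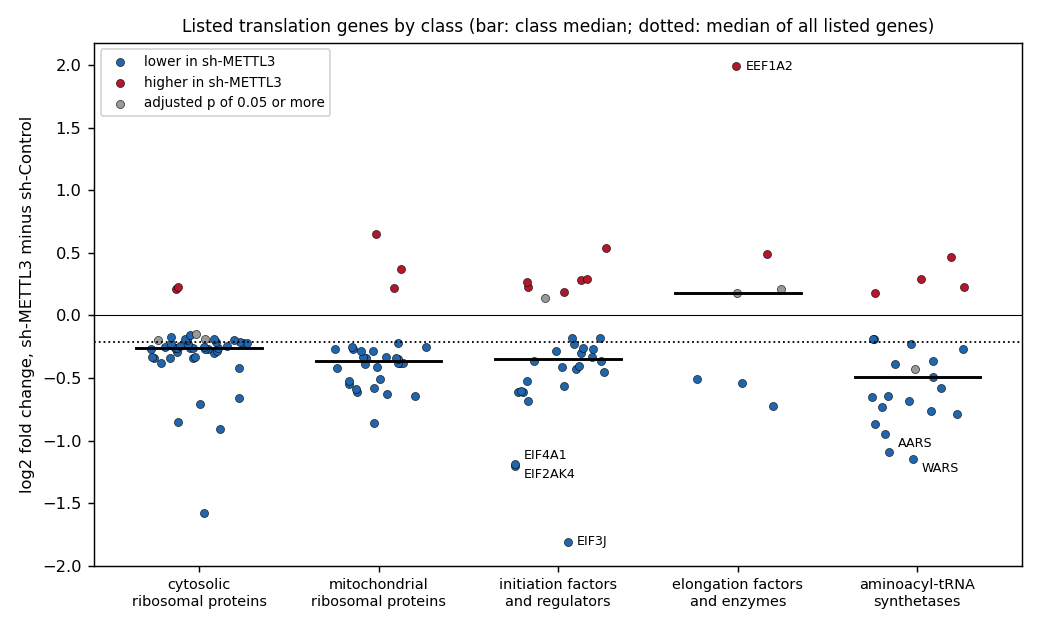
Log2 fold change (sh-METTL3 minus sh-Control, vertical axis) of the 134 listed translation genes, 1 point per gene, in 5 classes on the horizontal axis with horizontal jitter. Bars are class medians (from -0.49 in the synthetases to 0.18 in the elongation factors, the latter -0.16 when genes with a mean under 50 are left out), the dotted line is the median of all listed genes (-0.21), and grey points had an adjusted p of 0.05 or more.

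The aminoacyl-tRNA synthetases showed the lowest class median, -0.49 over 23 listed genes, of which 18 fell and 4 rose. The class was split by symbol, with genes named in the form of CARS2 taken as mitochondrial and the rest as cytosolic. A symbol does not show whether a gene serves both compartments. Of the 20 cytosolic synthetases in the annotation 18 were listed (90%), and 17 of these fell and 1 rose, with a median of -0.61. Of 14 mitochondrial synthetases 5 were listed (35.7%), and 3 rose, 1 fell and 1 did not pass, with a median of 0.23. Among listed protein-coding genes 42.8% were higher and 55.1% lower. The summed scaled counts of the 23 listed synthetases were 67562, 63853 and 60131 in the control libraries. They were 47669, 45530 and 45840 in the sh-METTL3 libraries, and the groups did not overlap. Listing itself means a call by the authors, and 33.8% of all annotated protein-coding genes were listed. Which genes were expressed enough to be tested is not shown by the table, and HARS and NARS, the cytosolic synthetases for histidine and asparagine, were not analysed here.

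The largest fall was that of WARS (ENSG00000140105, GRCh38 chromosome 14, 100333788 to 100376805, minus strand), which charges the tRNA of tryptophan. Its scaled counts were 3719, 3607 and 2979 in the controls and 1509, 1411 and 1708 in the METTL3-silenced cells. Every sh-METTL3 library was thus below every control, and the mean was 55.1% lower (log2 -1.15 ± 0.094, SE, n = 3 per group, limma adjusted p = 8.38e-06). AARS, the alanine enzyme (ENSG00000090861, chromosome 16, 70252295 to 70289543, minus strand), had 6502, 6020 and 5198 in the controls and 3005, 2630 and 2662 after silencing. Its mean was 53.2% lower (log2 -1.09 ± 0.084, SE, limma adjusted p = 5.90e-06), again without overlap.

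MARS, the methionine enzyme (ENSG00000166986, chromosome 12, 57475445 to 57517569, plus strand), fell from 3502, 3350 and 3149 to 1735, 1646 and 1786 (log2 -0.95 ± 0.059, SE, limma adjusted p = 1.42e-06). TARS for threonine, GARS for glycine, CARS for cysteine and FARSB, the beta subunit of the phenylalanine enzyme, followed with log2 fold changes of -0.87, -0.76, -0.73 and -0.68. EPRS, which carries the glutamate and proline activities in a single protein, was at -0.65, YARS for tyrosine at -0.64 and SARS for serine at -0.58. These all fell with adjusted p-values by limma from 4.74e-06 for EPRS to 2.12e-04 for FARSB.

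The remaining cytosolic enzymes differed less. IARS for isoleucine (-0.49), FARSA, the alpha subunit of the phenylalanine enzyme (-0.39), KARS for lysine (-0.36), VARS for valine (-0.27), LARS for leucine (-0.23), RARS for arginine (-0.19) and DARS for aspartate (-0.19) all fell. With RLE factors the calls of VARS, LARS, RARS and DARS were lost (adjusted p = 0.222, 0.257, 0.626 and 1 by edgeR), which left 13 of the 17 lower calls among cytosolic enzymes. The glutamine enzyme QARS was the exception, with scaled counts of 3251, 3013 and 3067 in the controls and 3530, 3706 and 3342 in the METTL3-silenced cells (log2 0.18 ± 0.057, SE, n = 3 per group, limma adjusted p = 0.0317), and the highest adjusted p of its alternative fits was 0.151. The subunits FARSA and FARSB of the phenylalanine enzyme fell by different amounts, from 1677 ± 163 to 1275 ± 64.5 and from 1120 ± 32.6 to 704 ± 87.2 (mean ± SD, n = 3).

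The mitochondrial enzymes moved in both directions. CARS2, the mitochondrial cysteine enzyme (ENSG00000134905, chromosome 13), had 1067, 955 and 907 in the controls and 1389, 1318 and 1346 after silencing, a log2 fold change of 0.47 ± 0.071 (SE, n = 3 per group, limma adjusted p = 5.07e-04). AARS2 rose from 752, 797 and 789 to 945, 945 and 979 (log2 0.29 ± 0.062, SE, limma adjusted p = 0.00398), and IARS2 from 2845, 2759 and 2975 to 3282, 3255 and 3552 (log2 0.23 ± 0.056, SE, limma adjusted p = 0.00793). For these 3 amino acids the cytosolic enzyme (CARS, AARS, IARS) was lower and the mitochondrial enzyme higher in the same libraries. NARS2, the asparagine enzyme of mitochondria, fell from 532, 504 and 536 to 312, 338 and 264 (log2 -0.79 ± 0.10, SE, limma adjusted p = 2.22e-04). MARS2 had 302, 251 and 215 in the controls and 191, 166 and 209 in the sh-METTL3 libraries and did not pass (log2 -0.43, limma adjusted p = 0.0512).

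**Figure D2:**
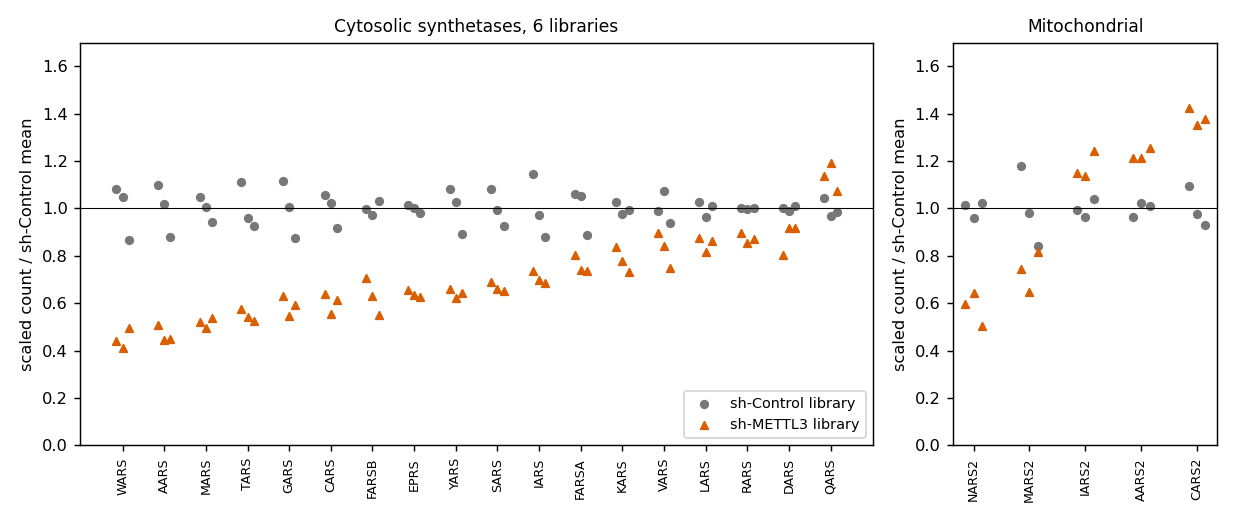
Scaled count of each listed synthetase in each of the 6 libraries divided by the gene's sh-Control mean (vertical axis, from 0), with genes on the horizontal axis in order of log2 fold change and 3 points per group side by side. The sh-METTL3 points lie below the control points for 17 cytosolic genes and above them for QARS, and of the 5 mitochondrial genes IARS2, AARS2 and CARS2 lie above.

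The control libraries differed among themselves in this class more than in the ribosomal classes. Relative to the control mean, the class median was 0.07 in sh-Control replicate 1 and -0.09 in replicate 3, and it was -0.43, -0.60 and -0.54 in the sh-METTL3 libraries. Without sh-Control replicate 1 the median fold change was -0.39, and without replicate 3 it was -0.58.

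Promoter sequences were available from RefSeq (GRCh38.p14) for 107 of the 134 genes, as 250 bases before and 50 bases after the start. TGATGCAA, the composite C/EBP-ATF element to which ATF4 is known to bind, was searched on both strands. It was present in 5 of the 14 cytosolic synthetases with an entry (35.7%) and in 0.903% of 15843 protein-coding genes, and in no other class of translation genes. The 5 genes are shown because they include 3 of the 4 synthetases with the largest falls. The 48 bases around each match are given 5′ to 3′ on the strand of the gene, with the match in capitals, which in each case is the reverse complement TTGCATCA.
AARS, chr16:70289666-70289713, minus strand, 187 bases before the start: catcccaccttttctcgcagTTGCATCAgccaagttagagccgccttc
MARS, chr12:57488044-57488091, plus strand, 4 bases before the start: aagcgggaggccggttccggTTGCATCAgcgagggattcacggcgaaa
TARS, chr5:33440947-33440994, plus strand, 2 bases after the start: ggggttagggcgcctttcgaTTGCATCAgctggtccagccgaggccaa
CARS, chr11:3057398-3057445, minus strand, 2 bases before the start: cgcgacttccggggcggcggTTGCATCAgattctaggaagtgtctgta
IARS, chr9:92293683-92293730, minus strand, 13 bases before the start: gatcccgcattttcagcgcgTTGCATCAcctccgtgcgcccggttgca
The median log2 fold change was -0.87 in these 5 genes and -0.58 in the 9 cytosolic synthetases without the 8 bases in the window, with ranges of -1.09 to -0.49 and -1.15 to 0.18 that overlap. WARS, which had the largest fall, was among the 9. YARS, VARS, LARS and DARS had no entry. A match is a description of sequence and not of binding.

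Of 31 genes listed as ATF4 and its known targets, 24 were in the table, and 20 fell, 2 rose and 2 did not pass, with a median of -0.69, when 55.1% of listed protein-coding genes were lower and 42.8% higher. ATF4 itself, the transcription factor, had a mean scaled count of 10407 ± 601 (SD, n = 3) in the controls and 5200 ± 230 in the METTL3-silenced cells (limma adjusted p = 1.22e-06). CHAC1, which degrades glutathione, had the largest fall, from 135 ± 74.7 to 15.9 ± 4.71 (log2 -2.90, limma adjusted p = 2.19e-04). It lies on chromosome 15 (40952962 to 40956519), in the stretch around EIF2AK4 where listed neighbours were lower too (median -1.08). CEBPB, a C/EBP factor, had the largest rise, from 1992 ± 286 to 2779 ± 171 (log2 0.49, limma adjusted p = 0.0028). The export receptor for tRNA, XPOT, also fell (log2 -0.83). Under RLE factors 18 of the genes were lower and 2 higher. The summed level of the 24 genes was 47882 to 60083 in the controls and 32534 to 34546 after silencing. In some of them the controls spread widely. In sh-Control replicates 1, 2 and 3 CHAC1 had 216, 120 and 69.2, and TRIB3 had 1547, 815 and 521. ATF4 itself spread less, with 10808, 10697 and 9717. ASNS, ATF5, DDIT4, GDF15, FGF21, VLDLR and ALDH1L2 were not analysed here. Of 7 synthetases and partners outside the naming rule 4 were listed: TARSL2, a second threonine enzyme, and PSTK, a kinase for selenocysteine tRNA, rose (log2 0.47 and 0.44), AIMP2, a scaffold of the multi-synthetase complex, fell (-0.60), and its partner AIMP1 had 0.27 with an adjusted p of 0.12 by limma.

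Of 9 subunits of eIF2 and of its exchange factor eIF2B 6 were listed, and these fell, with a median of -0.38. Among listed protein-coding genes 55.1% were lower. EIF2S3 and EIF2B1 were not analysed here. EIF2S1, the alpha subunit that stress kinases phosphorylate, had 1772, 1763 and 1764 in the controls and 1337, 1295 and 1367 in the sh-METTL3 libraries (log2 -0.41 ± 0.052, SE, n = 3 per group, limma adjusted p = 1.83e-04). EIF2B5, the catalytic subunit of the exchange factor, fell from 1434 ± 45.2 to 975 ± 66.2 (SD, n = 3; log2 -0.56), and EIF2B3, EIF2S2, EIF2B4 and EIF2B2 had values of -0.45, -0.36, -0.36 and -0.27. With RLE factors EIF2B4 (adjusted p = 0.0846 by edgeR) and EIF2B2 (adjusted p = 0.285) did not pass.

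Of the 4 genes for kinases that phosphorylate eIF2, 2 were listed, and EIF2AK1 and EIF2AK3 were not analysed here. EIF2AK4, which encodes GCN2, the sensor of uncharged tRNA (ENSG00000128829, chromosome 15, 39934146 to 40035591, plus strand), had 3358, 3454 and 3596 in the controls and 1475, 1494 and 1573 after silencing. Its mean was 56.4% lower (log2 -1.20 ± 0.054, SE, limma adjusted p = 1.91e-07). EIF2AK2, which encodes PKR, the kinase activated by double-stranded RNA, had 5882, 5872 and 6395 against 3573, 2955 and 5136. The groups did not overlap, but sh-METTL3 replicate 3 stood apart from the other two, and the fall (log2 -0.68 ± 0.16, SE, limma adjusted p = 0.00666) had an adjusted p of up to 0.059 in the alternative fits.

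Among the 30 listed initiation factors and regulators, 23 fell, 6 rose and 1 did not pass, when 55.1% of listed protein-coding genes were lower. Their median was -0.34. With RLE factors 15 were lower and 7 higher, and the median was -0.22. EIF3J, a loosely bound subunit of eIF3 (ENSG00000104131, chromosome 15, 44537057 to 44563029, plus strand), had the largest fall of all the translation genes. Its scaled counts were 1782, 1646 and 1671 in the controls and 487, 414 and 562 in the METTL3-silenced cells, a mean 71.3% lower (log2 -1.81 ± 0.10, SE, n = 3 per group, limma adjusted p = 7.90e-07). The other 7 listed subunits of eIF3, the scaffold that holds the small subunit during initiation, differed far less and in both directions. EIF3M (-0.33), EIF3A (-0.30), EIF3H (-0.18) and EIF3E (-0.18) fell, while EIF3I (0.29), EIF3L (0.27) and EIF3F (0.23) rose. With RLE factors EIF3A (adjusted p = 0.0756 by edgeR), EIF3H and EIF3E (adjusted p = 1 each) did not pass, and of all 8 listed subunits EIF3J and EIF3M were lower and 3 were higher. EIF3I, the largest of these rises, went from 3429, 3606 and 3450 to 4470, 4324 and 4071 (SE 0.054, limma adjusted p = 0.00166).

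Of the 9 listed eIF4 factors and their inhibitors, which act at the capped end of mRNA, 6 fell, 2 rose and 1 did not pass, when 55.1% of listed protein-coding genes were lower and 42.8% higher, and RLE factors gave 5 lower and 3 higher. EIF4A1, a helicase of the cap-binding complex eIF4F (ENSG00000161960, chromosome 17, 7572706 to 7579005, plus strand), had 858, 969 and 967 in the controls and 457, 409 and 363 after silencing (log2 -1.19 ± 0.098, SE, n = 3 per group, limma adjusted p = 8.79e-06). A read-through gene, SENP3-EIF4A1, overlaps it on the same strand, 48.6% of its exonic bases are shared with other genes, and 13 pseudogenes are named after it, so its counts depend on how shared reads were treated. Per kilobase of exon its control level was 175 against 2685 for its paralog EIF4A2. EIF4A2 fell from 15785, 16248 and 17376 to 10830, 10820 and 10713 (log2 -0.61 ± 0.056, SE, limma adjusted p = 1.79e-05), and the related helicase EIF4A3, a core part of the exon junction complex, had a fold change of -0.52.

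The cap-binding protein EIF4E (-0.40) and the scaffold EIF4G1 (-0.28) fell, the latter not with RLE factors (adjusted p = 0.068 by edgeR). Of the inhibitors that sequester EIF4E and are switched off by mTORC1, EIF4EBP1 fell from 1827, 1938 and 1595 to 1184, 1179 and 1160 (log2 -0.60 ± 0.074, SE, n = 3 per group, limma adjusted p = 1.27e-04), whereas EIF4EBP2 rose from 2807, 3046 and 3115 to 3458, 3414 and 3373 (log2 0.19 ± 0.054, SE, limma adjusted p = 0.0181, and up to 0.078 in the alternative fits). EIF4E3, a divergent cap-binding protein at a low level, rose from 92.5, 85.5 and 105 to 117, 153 and 143 (log2 0.54 ± 0.16, SE, limma adjusted p = 0.0262, and up to 0.115 in the alternative fits). EIF4G2, a scaffold without the EIF4E binding site, had 16217, 15745 and 16356 against 17281, 17733 and 18070, with no overlap, yet it did not pass (log2 0.14, limma adjusted p = 0.0884) and passed with RLE factors (adjusted p = 0.004).

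Among the other initiation factors, EIF1, which helps select the start codon, fell from 8386 ± 369 to 6232 ± 222 (SD, n = 3; log2 -0.43), EIF1AD had -0.61, and EIF6, which keeps the subunits apart, had -0.26. EIF2D, which can deliver tRNA without eIF2, rose from 1213, 1232 and 1202 to 1540, 1407 and 1483 (log2 0.28 ± 0.058, SE, limma adjusted p = 0.00345). EIF5, which triggers GTP hydrolysis on eIF2, passed (log2 -0.23, limma adjusted p = 0.0335) although its groups overlapped, with 4395, 3873 and 4180 in the controls and 3357, 3387 and 3912 after silencing. It did not pass with RLE (adjusted p = 0.622 by edgeR) or TMM factors (adjusted p = 0.101), nor did EIF6 with RLE factors (adjusted p = 0.145).

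The cytosolic ribosomal proteins moved by small and similar amounts. Of 44 listed genes of 90 annotated, 39 fell, 2 rose and 3 did not pass, when 55.1% of listed protein-coding genes were lower. The class median was -0.26, with quartiles of -0.33 and -0.21. The large subunit (27 listed genes, median -0.25) and the small subunit (17, median -0.27) had like values. Their summed scaled counts were 713212, 721759 and 704377 in the controls and 614395, 610616 and 571436 in the METTL3-silenced cells, which corresponds to 5.04%, 4.97% and 4.91% of the reads on listed genes against 4.39%, 4.35% and 4.17%. The groups did not overlap on either measure, and sh-METTL3 replicate 3 was the lowest. Both measures cover only listed genes, which the authors had called before, so the level of all ribosomal protein mRNAs is not shown. With RLE factors the median was -0.13 and 11 genes were lower and 2 higher, so that most single calls in this class depended on the scaling.

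**Figure D3:**
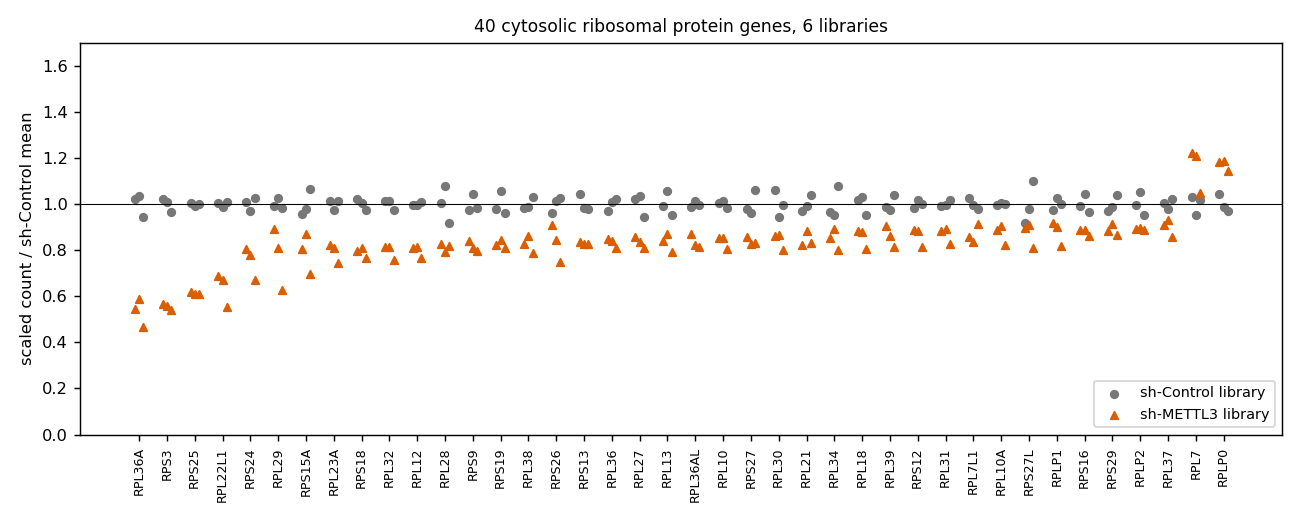
Scaled count of 40 of the 44 listed cytosolic ribosomal protein genes in each library divided by the gene's sh-Control mean (vertical axis, from 0), in order of log2 fold change, with 3 points per group side by side. Most sh-METTL3 points lie a little below 1, RPL36A, RPS3, RPS25 and RPL22L1 at the left lie lower, and RPL7 and RPLP0 at the right lie above.

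RPL36A, RPS3, RPS25 and RPL22L1 stood below most of the class. RPS3, a protein at the mRNA entry channel of the small subunit (ENSG00000149273, chromosome 11, 75399486 to 75422280, plus strand), had 44540, 44025 and 42125 in the controls and 24660, 24235 and 23575 after silencing. It was one of the most abundant of these mRNAs, and its mean was 44.5% lower (log2 -0.85 ± 0.062, SE, n = 3 per group, limma adjusted p = 4.22e-06). RPS25, another small subunit protein (ENSG00000118181, chromosome 11, 119015712 to 119018691, minus strand), had 18923, 18666 and 18841 against 11600, 11472 and 11452 (log2 -0.71 ± 0.050, SE, limma adjusted p = 3.45e-06). In both genes the spread within a group was small beside the distance between the groups.

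RPL36A (ENSG00000241343) on the X chromosome, at a much lower level, fell from 320, 324 and 295 to 171, 184 and 146 (log2 -0.91 ± 0.12, SE, limma adjusted p = 2.43e-04), and it has 19 pseudogenes of its name and a read-through gene, RPL36A-HNRNPH2, on the same strand. Its counts are uncertain where reads could be assigned to more than 1 copy. RPL22L1, a paralog of RPL22, fell from 2228, 2189 and 2245 to 1524, 1492 and 1228 (log2 -0.66 ± 0.080, SE, limma adjusted p = 1.21e-04).

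Among the 44 genes, the level per kilobase of exon in the controls was highest for RPS12 (26954) and RPS18 (17389). RPS12 had 20327, 21047 and 20647 in the controls and 18309, 18280 and 16861 after silencing (log2 -0.22 ± 0.059, SE, n = 3 per group, limma adjusted p = 0.0154). RPS18 had 33667, 33143 and 32203 against 26339, 26748 and 25330 (log2 -0.34 ± 0.061, SE, limma adjusted p = 0.00156). Neither had overlapping groups, but with RLE factors RPS12 did not pass (adjusted p = 0.458 by edgeR).

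RPLP0 and RPL7 were the only listed cytosolic ribosomal genes that rose. RPLP0, the base of the stalk that recruits elongation factors (ENSG00000089157, chromosome 12, 120196686 to 120201235, minus strand), had 43207, 40892 and 40119 in the controls and 48929, 49167 and 47418 in the METTL3-silenced cells (log2 0.23 ± 0.068, SE, n = 3 per group, limma adjusted p = 0.024, and up to 0.106 in the alternative fits). RPL7 had 18753, 17394 and 18539 against 22237, 22057 and 19075 (log2 0.21 ± 0.073, SE, limma adjusted p = 0.0492), and passed in 9 of its 18 alternative fits. There are 61 pseudogenes named after RPL7. The other stalk proteins did not rise: RPLP2 fell (log2 -0.16, limma adjusted p = 0.0421) but did not pass with RLE factors (adjusted p = 1) or TMM factors (adjusted p = 0.166), and RPLP1 had 31083, 32724 and 31830 against 29276, 28718 and 26091 without passing (log2 -0.19, limma adjusted p = 0.0599). RPL37 (-0.15, adjusted p = 0.0544) and RPS27L (-0.20, adjusted p = 0.0718), a paralog of RPS27 that p53 is known to induce, did not pass by limma either.

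The first base of the RefSeq start was a C followed by at least 4 more pyrimidines in 27 of the 35 cytosolic ribosomal genes with a promoter entry (77.1%), and in 6.24% of all protein-coding genes of that table. The starts of 7 genes are shown because they cover the most abundant ribosomal mRNAs, those with the larger falls on chromosome 11, the ribosomal gene with the largest rise and the main elongation factors. Each line gives 15 bases before and 25 bases from the start, 5′ to 3′ on the strand of the gene, with the pyrimidine run that begins at the start in capitals.
RPS12, chr6:132814554-132814593, plus strand: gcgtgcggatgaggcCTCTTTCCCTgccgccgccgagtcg
RPS18, chr6:33272060-33272099, plus strand: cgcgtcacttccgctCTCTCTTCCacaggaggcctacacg
RPS3, chr11:75399503-75399542, plus strand: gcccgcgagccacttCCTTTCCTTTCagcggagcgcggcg
RPS25, chr11:119018319-119018358, minus strand: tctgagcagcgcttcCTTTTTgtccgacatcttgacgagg
RPLP0, chr12:120201087-120201126, minus strand: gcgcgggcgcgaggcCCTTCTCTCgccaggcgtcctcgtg
EEF1A1, chr6:73521008-73521047, minus strand: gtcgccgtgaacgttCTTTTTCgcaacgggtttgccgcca
EEF2, chr19:3985439-3985478, minus strand: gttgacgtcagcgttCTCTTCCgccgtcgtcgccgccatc
Genes with a run at the start thus stood among the ribosomal genes that fell most (RPS3, RPS25), that fell little (RPS12) and that rose (RPLP0). The median was -0.26 in the 27 genes with the run and -0.23 in the 8 without it. RPS15A, RPL23A, RPL30, RPL37 and RPL7 had no entry.

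Elongation factors were the class with few listed genes, 7 of 16, and with no common direction. EEF1A1, which brings charged tRNA to the ribosome, had the highest level per kilobase among the translation genes (41766 in the controls). Its scaled counts were 251367, 243524 and 250378 in the controls and 296963, 293044 and 254523 after silencing, and it did not pass (log2 0.18 ± 0.12, SE, n = 3 per group, limma adjusted p = 0.529). The sh-METTL3 libraries differed more than the controls, with replicate 3 close to them. EEF2, which moves the ribosome along, had 85340, 78026 and 67438 against 91705, 93530 and 81788, and the groups overlapped (log2 0.21 ± 0.11, SE, limma adjusted p = 0.211). With RLE factors both passed as higher (adjusted p = 0.00807 for EEF1A1 and 0.0117 for EEF2 by edgeR), so the call on these abundant mRNAs depended on the scaling and the tool.

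EEF1A2, the form of EEF1A1 of muscle and neurons, rose from 14.4, 11.5 and 3.74 to 31.7, 43.8 and 38.1 (log2 1.99 ± 0.43, SE, limma adjusted p = 0.00422). These values rest on 4 to 34 reads per library, so the size of the change is imprecise. EEF1AKMT3, a methyltransferase of EEF1A1, rose from 181, 189 and 170 to 240, 228 and 298 (log2 0.49 ± 0.13, SE, limma adjusted p = 0.014, and up to 0.0734 in the alternative fits). EEF1E1, a scaffold of the multi-synthetase complex also called AIMP3, fell from 174, 159 and 182 to 112, 110 and 91.8 (log2 -0.72 ± 0.14, SE, limma adjusted p = 0.0029), EEFSEC, the selenocysteine elongation factor, fell from 314, 249 and 269 to 196, 196 and 190 (log2 -0.51, limma adjusted p = 0.00713), and EEF2KMT, a methyltransferase of EEF2, from 108, 121 and 129 to 88.6, 86.3 and 70.5 (log2 -0.54, limma adjusted p = 0.0261), a call that was lost with RLE factors (adjusted p = 0.0948). The genes that fell are thus all weakly expressed partners and not the main factors. The class median, 0.18, is that of EEF1A1, and it turned to -0.16 over genes with a mean of at least 50 and to -0.15 over genes without an overlapping gene or a named pseudogene.

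Of 18 translation factors outside the naming rule 12 were listed, 8 lower and 4 higher, with a median of -0.27, near the 55.1% lower, 42.8% higher and median of -0.25 of listed protein-coding genes. With RLE factors 6 were lower and 4 higher. ABCE1, which recycles ribosomes, had the largest fall, from 2429 ± 37.9 to 1295 ± 59.7 (SD, n = 3; log2 -0.91, limma adjusted p = 1.30e-06), and PAIP2B, an inhibitor of poly(A)-binding protein, had the largest rise, from 52 ± 19.7 to 127 ± 4.66 (log2 1.34, limma adjusted p = 0.00188). LARP1, which binds the TOP motif, had a fold change of -0.49, while the poly(A)-binding proteins PABPC1 and PABPC4 rose (0.27 and 0.32).

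Of 78 mitochondrial ribosomal protein genes 30 were listed (38.5%). Of these 27 fell and 3 rose, with a median of -0.36, when 55.1% of listed protein-coding genes were lower and 42.8% higher. With RLE factors 14 were lower and 3 higher, and the median was -0.24. The listed genes came mostly from the large subunit, 24 of 49, against 6 of 29 for the small subunit, and the median was -0.36 in each. Over the 30 listed genes, all called before by the authors, summed scaled counts were 23829, 24385 and 23815 in the controls. They were 19446, 19199 and 19030 in the METTL3-silenced cells, without overlap. MRPL21 fell from 781, 805 and 777 to 485, 554 and 481 (log2 -0.64 ± 0.079, SE, n = 3 per group, limma adjusted p = 1.35e-04). MRPL49 fell from 1893, 2035 and 1998 to 1240, 1290 and 1306 (log2 -0.63 ± 0.056, SE, limma adjusted p = 1.50e-05), and MRPL14 from 1306, 1441 and 1311 to 955, 839 and 858 (log2 -0.61 ± 0.072, SE, limma adjusted p = 9.61e-05). These are all proteins of the large subunit, and their groups stood well apart. MRPS24 in the small subunit had a larger value at a mean scaled count under 100 (log2 -0.86), with a read-through gene on the same strand.

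MRPL33, MRPL41 and MRPL43 went against the class. MRPL33 rose from 518, 627 and 579 to 829, 979 and 887 (log2 0.65 ± 0.092, SE, n = 3 per group, limma adjusted p = 3.54e-04), and the gene BABAM2 overlaps it on the same strand. MRPL41 rose from 708, 757 and 566 to 812, 869 and 938 (log2 0.37 ± 0.11, SE, limma adjusted p = 0.0204), and MRPL43 from 824, 851 and 870 to 1045, 956 and 958 (log2 0.22 ± 0.065, SE, limma adjusted p = 0.0257). No group overlapped in these genes, but the adjusted p of MRPL41 and MRPL43 reached 0.0863 and 0.108 in the alternative fits. Of 16 other genes of mitochondrial translation 4 were listed: DAP3 of the small subunit fell (-0.46), as did GFM1, an elongation factor (-0.25), and PTCD3 (-0.24), and GADD45GIP1 of the large subunit rose (0.24). GFM1 (adjusted p = 0.364 by edgeR) and PTCD3 (adjusted p = 0.32) did not pass with RLE factors. TUFM and TSFM, the main mitochondrial elongation factors, were not analysed here.

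The genes that make ribosomes were lower without exception among those listed. Of 50 ribosome biogenesis genes 33 were in the table, and all 33 of these fell, with a median of -0.50, when 55.1% of listed protein-coding genes were lower and their median was -0.25. With RLE factors 27 were lower. NOP10, a small protein of the H/ACA particles that modify ribosomal RNA, encoded on chromosome 15, had the largest fall, from 1171 ± 40.6 to 479 ± 22.5 (SD, n = 3; log2 -1.29, limma adjusted p = 5.87e-07). DDX21, a nucleolar helicase, went from 4490 ± 241 to 2233 ± 138 (log2 -1.01), NOP56, a core protein of the C/D particles, from 2786 ± 204 to 1588 ± 36.5 (log2 -0.81), and NCL, the abundant nucleolar protein nucleolin, from 11055 ± 799 to 8231 ± 32.1 (log2 -0.42). The RNA polymerase I subunits POLR1B, POLR1A, POLR1E and POLR1C had fold changes of -0.59, -0.53, -0.40 and -0.37, the last not past the threshold with RLE factors (adjusted p = 0.183 by edgeR). FAU, the source of a small subunit protein and outside the naming rule, fell as well (-0.67) and lies on chromosome 11 at 65120628. NPM1, NOP2, UBTF, RPSA and RACK1 were not analysed here.

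Of 31 mTORC1 pathway genes 14 were listed, of which 8 rose and 6 fell, near the shares of all listed genes (46.6% higher and 51.3% lower). Their median was 0.22, and RLE factors left 8 higher and 2 lower. SESN3, an inhibitor upstream of mTORC1, had the largest rise, from 33.5 ± 10.6 to 153 ± 23.9 (SD, n = 3; log2 2.19, limma adjusted p = 6.26e-05), and LAMTOR1, the lysosomal anchor of the Ragulator complex on chromosome 11, had the largest fall, from 2877 ± 199 to 1932 ± 68.6 (log2 -0.57, limma adjusted p = 6.09e-05). The kinases for ribosomal protein S6 that act downstream, RPS6KB2 and RPS6KB1, had values of -0.51 and -0.27, and RPS6KB1 (limma adjusted p = 0.045) did not pass with RLE factors (adjusted p = 0.447). RPS6KB2 and LAMTOR1 lie on chromosome 11 at 67428460 and 72085895, in the stretch with lower listed neighbours described below. SESN3, which rose, lies on the same chromosome at 95165513. MTOR, RPTOR, RHEB and MLST8 were not analysed here.

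**Figure D4:**
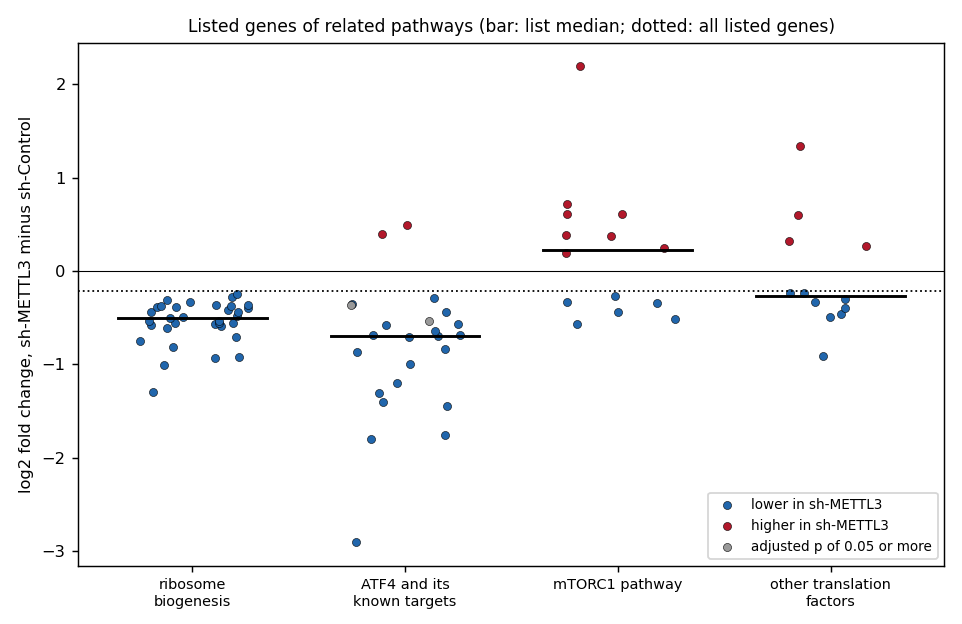
Log2 fold change (sh-METTL3 minus sh-Control, vertical axis) of the listed genes of 4 related gene lists, 1 point per gene with horizontal jitter. Bars are list medians (-0.50 for ribosome biogenesis, -0.69 for ATF4 and its known targets, 0.22 for the mTORC1 pathway and -0.27 for the other translation factors), and the dotted line is the median of all listed genes (-0.21).

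Some of the larger falls were found in stretches of chromosomes 11 and 15 where the listed neighbours were lower too. The neighbours are all listed genes outside the translation set within 5 Mb. On chromosome 11, 8 of 14 translation genes had neighbours with a median log2 fold change of -0.70 to -0.54, and all 8 fell, with a median of -0.64: NARS2, RPS3, RPS25, EIF1AD, MRPL21, MRPL49, MRPL48 and MRPL11. The other 6 genes of chromosome 11, with neighbour medians of -0.44 to 0.47, had a median of -0.22, and 4 fell, 1 rose and 1 did not pass. RPS3 (-0.85) and RPS25 (-0.71) differed little from their neighbours, whose medians were -0.68 and -0.70.

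On chromosome 15, EIF3J (-1.81) and EIF2AK4 (-1.20) lay among 84 and 78 listed neighbours with medians of -1.06 and -1.08. EIF2AK4 was thus close to its neighbours, and EIF3J below them. The fall of EIF2AK4 and that of the genes around it cannot be told apart with these data, and what the genes of these stretches share was not tested.

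**Figure D5:**
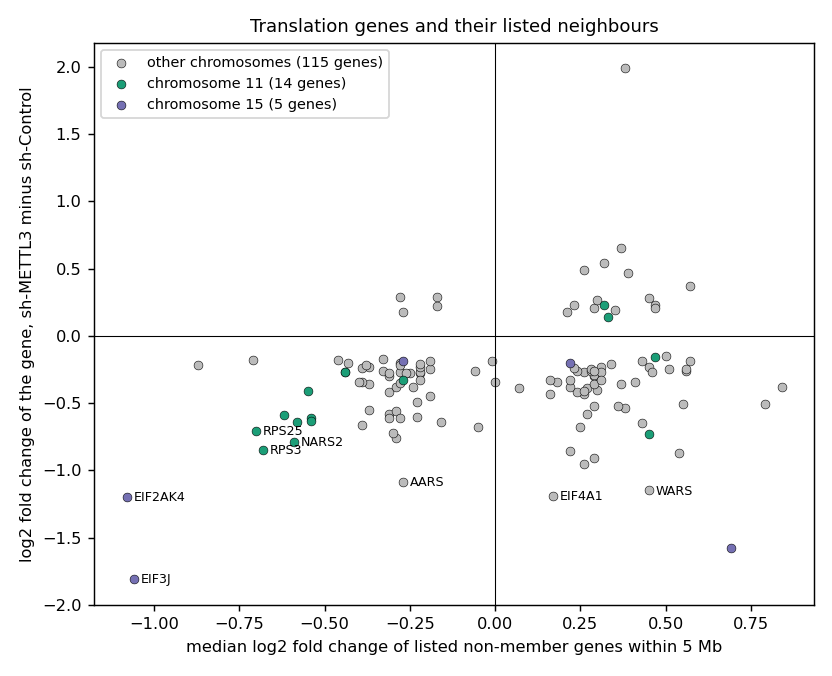
Log2 fold change of each of the 134 translation genes (vertical axis) against the median log2 fold change of the listed genes outside the set within 5 Mb (horizontal axis), with the 14 genes of chromosome 11 and the 5 of chromosome 15 coloured. EIF2AK4, EIF3J, RPS3, RPS25 and NARS2 lie at the left with low neighbours, as do unlabelled points with small falls such as RPS12 (-0.22, neighbours -0.87) and EIF3E (-0.18, neighbours -0.71), whereas WARS, AARS and EIF4A1 have neighbour medians from -0.27 to 0.45.

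Falls on the other chromosomes were found among both lower and higher neighbours. There, 47 of 51 translation genes with a neighbour median below 0 fell, as did 48 of 64 with a neighbour median of 0 or more, and the gene medians were -0.28 and -0.29. WARS and MARS fell among neighbours with medians of 0.45 and 0.26. Without chromosomes 11 and 15 the class medians were -0.43 for the synthetases, -0.26 for the cytosolic and -0.34 for the mitochondrial ribosomal proteins, and -0.33 for the initiation factors.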

How the data were processed

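RNA of 6 ARPE-19 libraries, 3 per group, was sequenced, and groups came from the sample labels. The study's methods name single-end HiSeq sequencing and Cufflinks with RefSeq, and the submitters' processing notes name HISAT2 2.0.5 and hg38. The table has Ensembl genes whose positions equal GENCODE 29. The counter and strandedness are not given in the sources used here, so antisense and overlapping genes cannot be told apart. The authors deposited a signal per library, the read count divided by 1 size factor, from which 100% of the values gave whole reads within 0.01. Group means, the authors' log2 fold change and their p-value for each gene were deposited too and were used only to find the 22977 tested genes and the listing threshold. In 13 rows a symbol had become a date and was restored from GENCODE.

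limma 3.58.1 in R 4.3.3 was fitted, with the mean-variance trend, to log2(scaled count + 1) of all 7758 genes without covariates. This scale understates changes of low genes. The plan named limma for scaled values and edgeR for raw counts. Classes and lists are described by counts and medians. The members and lists were chosen with earlier results of these data known. Named were, per class, the 3 largest rises and 3 largest falls that passed with a mean of at least 100, every gene with an absolute log2 fold change of at least 1, those that did not pass, the 3 ribosomal genes highest per length, and the largest rise and fall per list. A few genes, some of them picked by this rule, are not reported individually. Other genes were named after their values were seen. Alternatives used edgeR 4.0.16 (RLE, TMM, listed-gene totals) and DESeq2 1.42.0 on the recovered reads, limma-voom, other pseudocounts and filters, a replicate block and each library left out. Tested on simulated data of 7758 genes for this comparison, limma recovered 100% of 200 genes changed by a log2 value of 1 and called 6 unchanged ones. The changed genes had a mean of at least 50, all others were unchanged, and p was adjusted over 7758 genes. Most translation genes differed by less than a log2 value of 1, so this recovery does not apply to their calls. Library depth is unknown, since only listed genes are given.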

Additional observations from a re-analysis of the deposited data

How the results depend on the processing

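No translation gene changed sign in any fit, and 63 passed in all. With RLE factors 76 genes were called, 56 lower, and the medians were -0.38 for synthetases, -0.13 for cytosolic and -0.24 for mitochondrial ribosomal proteins, -0.22 for initiation factors and 0.30 for elongation factors. With TMM factors or listed-gene totals the medians were -0.30 for initiation factors and -0.32 for mitochondrial ribosomal proteins, and with limma-voom -0.35 for initiation factors. Without the intensity trend 11 genes were higher, and at a threshold of 0.01, 8. A doubling or halving was passed by 7 genes, 1 higher and 6 lower, when 17.4% of all listed genes were doubled and 13.1% halved. With each library left out in turn, the higher calls ranged from 10 to 15, the synthetase median from -0.58 to -0.39 and the initiation median from -0.37 to -0.30. The elongation median turned to -0.16 over genes with a mean of at least 50, since EEF1A2 then left the class. Without chromosomes 11 and 15 the medians were -0.33 for initiation factors and -0.34 for mitochondrial ribosomal proteins.

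Chosen after seeing the data, the 53 genes without a same-strand overlapping gene or a named pseudogene gave 49 calls, 42 lower and 7 higher, with medians of -0.36 for initiation factors, -0.33 for mitochondrial ribosomal proteins and -0.15 for elongation factors, a sign turned by having fewer genes. Without sh-Control replicate 1 and sh-METTL3 replicate 3 the medians were -0.38 for synthetases and -0.27 for initiation factors. METTL3 was at -0.17 with RLE, -0.25 with TMM, -0.30 without the trend and at the 0.01 threshold, and -0.16 without both those libraries, and none of these passed. With single libraries left out it ranged from -0.38 to -0.18 and did not pass without any 1 of the controls. The cause of these shifts was not tested unless stated. Same-numbered libraries did not deviate together (correlations of 0.00361, 0.0193 and -0.015). This does not exclude that they were prepared together, which the labels leave unsaid. With a replicate block 120 genes were called, 15 higher and 105 lower, all of them among the 127. Depth limits genes with few reads, such as EEF1A2, and the preselected table limits every share given.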

Other observations

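Of the 16 listed pseudogenes named after cytosolic ribosomal genes, 9 rose, 6 fell and 1 did not pass, when 46.6% of all listed genes were higher and 51.3% lower, so these shares lie near those of the list. Their log2 fold changes ranged from -2.14 to 2.30 with a median of 0.24. Of the 134 translation genes, 76 had at least 1 annotated pseudogene with their name, up to 91 for RPL23A, 66 for RPL21, 61 for RPL7, 50 for RPL12 and 39 for EEF1A1. Whether reads were shared between these copies was not tested.

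The E-box CACGTG, to which MYC and related factors can bind, was in the promoter window of 16 of the 107 translation genes with an entry (15%) and in 10.9% of all protein-coding genes of the RefSeq table. The share was 5.71% in cytosolic ribosomal proteins, 15.4% in mitochondrial ribosomal proteins, 16.7% in synthetases and 25% in initiation factors. These are counts of 2, 4, 3 and 6 genes.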
